A study of Mus musculus with 6 samples.

Results

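Retinoic acid is made inside cells from vitamin A and acts through nuclear receptors. Retinol reaches cells on the plasma carrier RBP4 and can enter through its membrane receptor STRA6. Retinol dehydrogenases convert it to retinaldehyde, the ALDH1A enzymes oxidise retinaldehyde to retinoic acid, and cytosolic CRABP proteins bind the product. Retinoic acid then binds RAR receptors, which pair with RXR receptors on DNA, or is cleared by CYP26 enzymes. In embryos and in mesenchymal cells the pathway is known for patterning along the body axis and for differentiation.

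Transcripts of 9 genes of this pathway were examined: the binding proteins Crabp1, Crabp2 and Rbp4, the retinaldehyde dehydrogenases Aldh1a1, Aldh1a2 and Aldh1a3, the receptor gene Rarb, the degrading enzyme gene Cyp26b1 and the retinol transporter gene Stra6. They were found by gene symbol among 18051 genes in the table, and all 9 were present. The list was chosen by an earlier reading of the knockout and control levels of these same libraries, so the differences of the 9 members are given as a description, without a test.

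RNA-seq was performed on 6 mouse libraries, to compare gene expression with and without S100a8, a calcium-binding protein gene. The knockout group held 3 libraries labelled as a Cas9 knockout of S100A8, carried by a lentivirus according to their titles, and the control group held 3 libraries of a vector control. Both groups are labelled as hematopoietic stem cells. The study describes infecting such cells and mouse embryonic fibroblasts with the virus and selecting them with puromycin, and its text places the S100A8 CRISPR RNA-seq in the fibroblasts after addition of glycyrrhizic acid, a licorice compound. Whether the compound was present in either group, which guide was used and how many clones were pooled are not given in the labels, nor are strain and age. Nothing in the labels says that the 3 libraries of a group came from separate cultures, so p-values reflect the spread among these libraries alone, and that spread may be technical.

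Levels are given as FPKM, the fragments mapped to a gene corrected for transcript length and for the size of the library. S100a8 itself was listed at 0 in all 3 knockout libraries and read at 3.67, 1.61 and 3.95 FPKM in control libraries. FPKM summed to 467255 to 538504 per library, the sequencing depth is unknown, and 38.4% of the listed genes had a mean under 1 FPKM. Knockout replicate 2 stood apart from the other knockout libraries: its median log2 difference from them was 0.21 over the 3656 tested genes with the shortest transcripts (up to 2674 bases) and -0.24 over the 3655 with the longest (above 4319 bases). Of 16 fibroblast markers 14 had a mean of at least 1 FPKM, with summed levels of 7310 to 8273 FPKM in knockout and 5697 to 5790 FPKM in control libraries. Of 13 measured hematopoietic stem and progenitor markers, 7 had a mean of at least 1 FPKM, and the defining markers Ptprc and Kit had values of 0 throughout. The 13 summed to 147 to 174 FPKM in knockout and 451 to 470 FPKM in control libraries. Most of these sums was Ly6a alone, with means of 96.3 FPKM in knockout and 359.7 FPKM in control libraries. Summed epithelial and endothelial markers lay under 1 FPKM in each library. Mesothelial markers, mostly Msln, summed to 17.9 to 21.3 FPKM in knockout and 10.9 to 11.8 FPKM in control libraries, and neural crest, glial and neuronal markers, led by Tfap2a and Map2, to 24.9 to 26.3 FPKM in knockout and 12.0 to 12.6 FPKM in control libraries. Adipocyte markers, led by Fabp4, summed to 28.7 to 34.3 FPKM in knockout and 105 to 107 FPKM in control libraries. These marker levels differed between the groups together with the retinoid genes described below, and their part in those results was not tested. In bulk libraries, fewer cells of a type and less RNA per cell cannot be told apart.

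Among the 9 genes, 2 were expressed well above 1 FPKM in both groups, the cytosolic binding protein genes Crabp1 and Crabp2. The other 7 had a mean under 1 FPKM over the 6 libraries and fell below the limit used for testing.

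**Figure D1:**
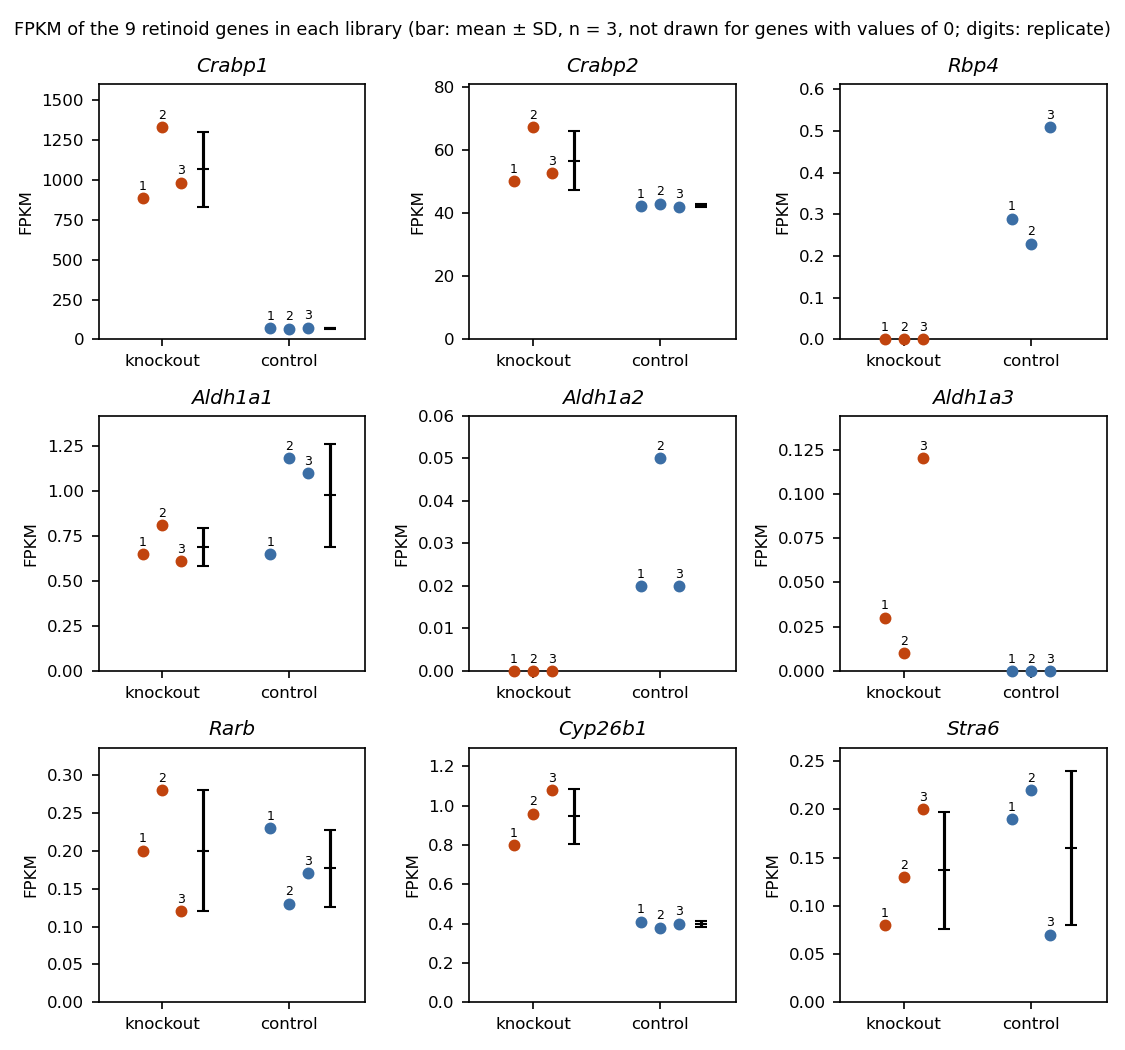
FPKM (vertical axes, linear, each starting at 0) of the 9 retinoid genes in each knockout and control library, one point per library with its replicate number, and mean ± SD (n = 3) for genes without values of 0. Crabp1 reached 882.89 to 1330.62 FPKM in knockout libraries against 66.75 to 74.24 FPKM in control libraries, whereas Aldh1a1, Rarb and Stra6 overlapped between groups and 7 genes reached at most 1.18 FPKM.

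Crabp1 encodes a small cytosolic protein that binds retinoic acid. It was read at 882.89, 1330.62 and 980.95 FPKM in the 3 knockout libraries, against 70.74, 66.75 and 74.24 FPKM in the 3 control libraries. The groups lay far apart, and knockout replicate 2 was the highest library. The mean was 1065 ± 235 FPKM in knockout and 70.6 ± 3.75 FPKM in control libraries (SD, n = 3 each), a ratio of 15.1, or 13.2 without knockout replicate 2. On the log2(FPKM + 1) scale the difference was 3.88 ± 0.14 (SE). Only 7 of the 11112 tested genes had a larger positive one, none of them above 100.08 FPKM in any library. This scale understates changes of low genes, so the rank holds for this scale and is not a rank by ratio. By mean level Crabp1 was gene 65 of the table in knockout libraries and gene 1162 in control libraries.

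The forward strand of chromosome 9 holds Crabp1 at 54764748 to 54773110 (GRCm38), and its longest annotated transcript has 4 exons and 802 bases. The 250 bases before its annotated start are shown because this was the member with the widest gap between groups. Capitals mark the GC box GGGCGG or its reverse complement, the core of sites bound by Sp1-family factors.

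Crabp1, chr9:54764498-54764747, forward strand: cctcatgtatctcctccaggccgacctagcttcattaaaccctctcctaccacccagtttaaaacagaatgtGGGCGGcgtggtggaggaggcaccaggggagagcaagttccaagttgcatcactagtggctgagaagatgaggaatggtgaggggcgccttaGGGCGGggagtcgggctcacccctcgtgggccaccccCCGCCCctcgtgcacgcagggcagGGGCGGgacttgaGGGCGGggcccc

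This stretch held 5 GC boxes on either strand. A GC box occurred in 35.7% of the 32851 RefSeq promoters (250 bases before to 50 after the start), so its presence is common. A retinoic acid response element was also searched for, as 2 half-sites in the same direction (AGGTCA, the variant AGTTCA, the variant GGGTCA or the variant GGTTCA) with 1, 2 or 5 bases between them, on both strands. No such match was found in the Crabp1 promoter, which says only that these letters are not in this window.

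Crabp2 encodes the related protein that carries retinoic acid to the nucleus and its receptors. Its levels were 50.2, 67.45 and 52.76 FPKM in knockout libraries and 42.28, 43.13 and 42.12 FPKM in control libraries. The groups did not overlap, but the gap was narrow and knockout replicate 2 was again the highest. The mean was 56.8 ± 9.31 FPKM in knockout and 42.5 ± 0.543 FPKM in control libraries (SD, n = 3 each), a ratio of 1.34, which was 1.21 without knockout replicate 2. The log2 difference was 0.40 ± 0.11 (SE), and 0.27 without that library. In all, 13.9% of tested genes had a larger difference than Crabp2. The gene lies on chromosome 3 at 87948666 to 87953376, on the forward strand, with 4 exons.

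In the fit across all genes, 50.2% of the 11112 tested genes passed the threshold in either direction (limma, adjusted p under 0.05), and both tested members, Crabp1 and Crabp2, were among them. Both also had non-overlapping groups, as did 46.9% of all 18051 genes. Since the members were chosen with this contrast known, nothing is read from these counts.

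Crabp1 was 17.59, 19.73 and 18.59 times the level of Crabp2 in the knockout libraries, against 1.67, 1.55 and 1.76 times in the control libraries. FPKM is scaled to transcript length so that levels of different genes can be set side by side. In knockout replicate 2 a difference by transcript length remained, as given above, so such comparisons are approximate.

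Other genes of retinoid binding and storage were read beside them. Fabp5, a fatty acid-binding protein that can also bind retinoic acid, rose by 0.48 ± 0.11 (SE), with 359 ± 50.3 FPKM in knockout and 256 ± 19.4 FPKM in control libraries (SD, n = 3 each, limma adjusted p = 0.00772). Fabp5 has near-identical copies in the mouse genome that can share its reads, and its value is uncertain for that reason. Rbp2, Rbp7 and Lrat, of which the last encodes the enzyme that esterifies retinol for storage, had means of at most 0.13 FPKM in either group.

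Across the 3 cytosolic carriers of retinoic acid, Crabp1, Crabp2 and Fabp5, the summed level was 1256.9, 1814.9 and 1371.0 FPKM in knockout libraries and 350.1, 364.6 and 392.2 FPKM in control libraries. Crabp1 made up 70.2%, 73.3% and 71.6% of that sum in the knockout libraries, against 20.2%, 18.3% and 18.9% in the control libraries. Fabp5 made up 25.8%, 23.0% and 24.6% of the sum in knockout libraries, against 67.7%, 69.9% and 70.3% of the smaller sum in control libraries. Crabp1 and Crabp2 were listed with their values known, so the shares are a description. The uncertainty in the level of Fabp5 carries over to these sums and shares.

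**Figure D2:**
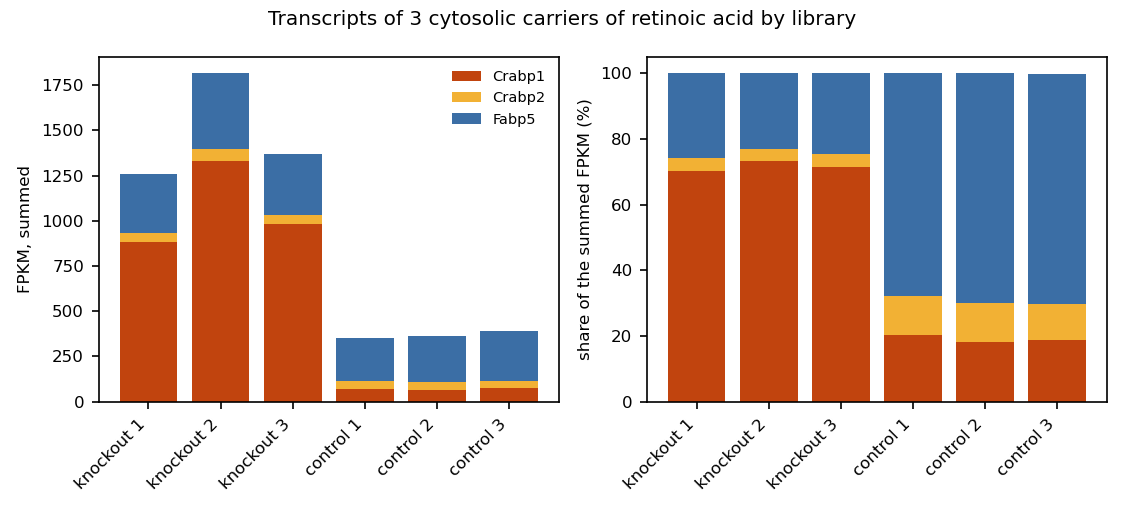
Summed FPKM (left) and share of that sum in percent (right) of the transcripts of 3 cytosolic carriers of retinoic acid, one stacked bar per library. Crabp1 is the largest part of each knockout bar (70.2% to 73.3%), and Fabp5 is the largest part of each control bar (67.7% to 70.3%). The level of Fabp5 is uncertain, since near-identical copies can share its reads.

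Rbp4 encodes the plasma retinol carrier, secreted above all by liver and also by fat tissue. It was listed at 0 in all 3 knockout libraries and read at 0.29, 0.23 and 0.51 FPKM in control libraries. Stra6, the membrane receptor for RBP4, was read at 0.08, 0.13 and 0.20 FPKM in knockout libraries and at 0.19, 0.22 and 0.07 FPKM in control libraries, with overlap between groups. Both genes stayed at or below 0.51 FPKM. Rbp4 lies on chromosome 19 at 38116629 to 38125281 on the reverse strand, and Stra6 on chromosome 9 at 58063788 to 58153996 on the forward strand. The annotated span of Stra6 overlaps that of Ccdc33 on the other strand, which was listed at 0 in all 6 libraries.

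The retinaldehyde dehydrogenases, which carry out the last step of synthesis, were all low. Aldh1a1 was read at 0.65, 0.81 and 0.61 FPKM in knockout libraries and at 0.65, 1.18 and 1.10 FPKM in control libraries. The lowest control library lay within the knockout range, so the groups overlapped. Aldh1a7, a close paralogue that can share reads with Aldh1a1, was at 0.61, 0.58 and 0.61 FPKM in knockout and 0.83, 0.65 and 0.75 FPKM in control libraries. Aldh1a2, the main enzyme of synthesis in the early embryo, was listed at 0 in the 3 knockout libraries and at 0.02, 0.05 and 0.02 FPKM in the control libraries. Aldh1a3 was the reverse, with 0.03, 0.01 and 0.12 FPKM in knockout libraries and 0 in all control libraries. Apart from the 0.12 FPKM of Aldh1a3, the values of Aldh1a2 and Aldh1a3 are at most a few units of the last decimal of the table. Each of these genes was listed at 0 throughout a group, so neither non-overlap carries a fold change.

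Summed over the 3 enzymes, the level was 0.68, 0.82 and 0.73 FPKM in knockout libraries and 0.67, 1.23 and 1.12 FPKM in control libraries, again with overlap. Aldh1a1 was the largest part of this sum in each library, with 0.61 of 0.73 FPKM in knockout replicate 3, where Aldh1a3 was at 0.12 FPKM. Aldh1a1 lies on chromosome 19 at 20492715 to 20643465 (forward strand), Aldh1a2 on chromosome 9 at 71215789 to 71296243 (forward strand) and Aldh1a3 on chromosome 7 at 66390890 to 66427517 (reverse strand).

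The steps between retinol and retinaldehyde were expressed more highly. Of 21 listed genes 19 were in the table and 8 were tested, and 5 of them rose, 1 fell and 2 missed the threshold. Their median log2 difference was 0.34, against -0.02 over all tested genes. The share called was 75.0%, beside 50.2% of all tested genes, a difference that was not tested. Dhrs3, an enzyme that reduces retinaldehyde back to retinol and is itself induced by retinoic acid, showed the widest gap. It was read at 27.67, 40.78 and 32.33 FPKM in knockout libraries and at 8.6, 8.04 and 8.64 FPKM in control libraries, without overlap. The ratio of means was 3.99, or 3.56 without knockout replicate 2, and Dhrs3 rose by 1.86 ± 0.13 on the log2 scale (SE, n = 3 per group, limma adjusted p = 1.14e-05). Rdh11, an enzyme of the endoplasmic reticulum that interconverts retinol and retinaldehyde, rose by 0.83 ± 0.06 (SE), with 26.7 ± 1.66 FPKM in knockout and 14.6 ± 0.139 FPKM in control libraries (SD, n = 3 each). Adh7, a cytosolic alcohol dehydrogenase that oxidises retinol, rose by 0.68 ± 0.09 (SE), with 15.3 ± 1.85 FPKM in knockout and 9.16 ± 0.0451 FPKM in control libraries (SD, n = 3 each).

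Rdh10, the retinol dehydrogenase that mouse embryos depend on for retinoic acid synthesis, fell by 0.26 ± 0.07 (SE), with 4.14 ± 0.154 FPKM in knockout and 5.14 ± 0.267 FPKM in control libraries (SD, n = 3 each, limma adjusted p = 0.0169). That call was lost without control replicate 1 or 2 and with scaling to a common sum (adjusted p 0.0688, 0.0716 and 0.0647, range over all settings 0.00704 to 0.0716). The other 2 genes that rose, Dhrs4 and Rdh14, did so by 0.47 and 0.21, and both calls were lost when the genes of each chromosome were centred (adjusted p 0.735 and 0.925, with ranges over all settings of 0.000176 to 0.735 for Dhrs4 and 0.009 to 0.925 for Rdh14). The call of Rdh14 was also lost without knockout replicate 1 or any 1 control library, with scaling to a common sum and after adjustment for transcript length. Adh5, the most abundant gene of the list and a ubiquitous alcohol dehydrogenase better known for formaldehyde removal, was read at 53.3 ± 4.91 FPKM in knockout and 55.5 ± 2.05 FPKM in control libraries (SD, n = 3 each, limma adjusted p = 0.534, and 0.0216 without knockout replicate 2, range 0.0216 to 0.89). Of the genes under the limit, Dhrs9 was read at 0.31, 0.21 and 0.32 FPKM in knockout libraries and at 1.67, 1.54 and 1.47 FPKM in control libraries. This gene was picked once its values were known.

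Cyp26b1 encodes a cytochrome P450 that oxidises retinoic acid for clearance and is induced by it in many tissues. Its levels were 0.80, 0.96 and 1.08 FPKM in knockout libraries and 0.41, 0.38 and 0.40 FPKM in control libraries. The groups did not overlap, with a ratio of means of 2.39, or 2.37 without knockout replicate 2. The gene lies on chromosome 6 at 84571414 to 84593908 on the reverse strand. The other 2 CYP26 genes were lower: Cyp26a1 was at 0.06 to 0.09 FPKM in knockout and 0.10 to 0.14 FPKM in control libraries, and Cyp26c1 at 0.13 to 0.26 FPKM in knockout and 0.20 to 0.23 FPKM in control libraries.

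Of the 7 members under 1 FPKM, 4 had groups that did not overlap: Cyp26b1 and Aldh1a3 were higher and Rbp4 and Aldh1a2 lower in the knockout. Among all 6939 genes with a mean under 1 FPKM, 24.7% had non-overlapping groups. This count is given beside its background only, since the contrast was known when the members were listed.

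Rarb encodes retinoic acid receptor beta, whose promoter is a textbook target of retinoic acid itself. It was read at 0.20, 0.28 and 0.12 FPKM in knockout libraries and at 0.23, 0.13 and 0.17 FPKM in control libraries, with full overlap. The gene lies on chromosome 14 at 16430839 to 16819156 on the reverse strand, and its annotated span overlaps Top2b on the other strand, which was read at 35.9 ± 5.57 FPKM in knockout and 26.5 ± 0.415 FPKM in control libraries (SD, n = 3 each). Whether the counting used strand is not given, so reads from an overlap cannot be told apart. Its promoter is shown because it held the only match to a retinoic acid response element among the members. Capitals mark 2 half-sites and the 5 bases between them.

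Rarb, chr14:16575477-16575726, reverse strand: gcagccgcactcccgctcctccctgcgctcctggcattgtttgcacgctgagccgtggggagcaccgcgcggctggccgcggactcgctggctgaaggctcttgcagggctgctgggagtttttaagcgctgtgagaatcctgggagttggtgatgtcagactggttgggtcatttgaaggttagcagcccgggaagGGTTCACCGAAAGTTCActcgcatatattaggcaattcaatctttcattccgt

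This start lies inside the annotated span of Rarb, and the element runs from 53 to 37 bases before it. Of the members, 7 had at least 1 RefSeq promoter and Rarb was the only one with a match. Matches with 5 bases between half-sites occurred in 0.0974% of the 32851 promoters, those with 2 bases in 0.268% and those with 1 base in 0.222%. Among the other retinoid genes, 51 of 71 had a promoter, and 2 of these held a match: Cyp26a1 with 5 bases between half-sites and Bco1, a carotene-cleaving enzyme, with 1 base. The 2 elements with 5 bases are set side by side below, each read in the direction of its half-sites, with half-sites in capitals.

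Rarb, chr14:16575513-16575529: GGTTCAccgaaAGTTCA
Cyp26a1, chr19:37697776-37697792: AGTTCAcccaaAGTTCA

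Rarb and Cyp26a1, the retinoid genes with these elements, were both at or below 0.28 FPKM in every library.

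Most of the expressed receptors were lower in the knockout. Of 5 listed receptor genes besides Rarb, 4 were tested, of which 3 fell and 1 did not pass. The share called was 75.0%, beside 50.2% of all tested genes, and the difference between these shares was not tested. Rara was read at 14.79, 18.07 and 15.86 FPKM in knockout libraries, against 28.72, 27.38 and 27.03 FPKM in control libraries, without overlap. It fell by 0.74 ± 0.08 (SE, limma adjusted p = 0.000152). Rarg, the most abundant retinoid receptor here, was read at 47.82, 53.68 and 53.03 FPKM in knockout libraries and at 72.85, 72.61 and 72.80 FPKM in control libraries. It fell by 0.49 ± 0.06 (SE, limma adjusted p = 0.000356), again without overlap. Rxra, the partner subunit, fell by 0.38 ± 0.06 (SE), with 16.5 ± 0.413 FPKM in knockout and 21.8 ± 1.06 FPKM in control libraries (SD, n = 3 each, limma adjusted p = 0.00127). The 893 tested genes of chromosome 2, where Rxra lies, had a median difference of -0.20. With the genes of each chromosome centred, the difference of Rxra was -0.19 and the call was kept (limma adjusted p = 0.0398).

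Rxrb did not pass, with 15.0 ± 1.84 FPKM in knockout and 14.6 ± 0.903 FPKM in control libraries (SD, n = 3 each, limma adjusted p = 0.767). Rxrg was listed at 0 in 5 of the 6 libraries. The 3 RAR genes summed to 62.8, 72.0 and 69.0 FPKM in knockout libraries and to 101.8, 100.1 and 100 FPKM in control libraries. Rarg made up 76.1%, 74.5% and 76.8% of that sum in knockout libraries, compared with 71.6%, 72.5% and 72.8% in control libraries. Rarb made up at most 0.39% of it in any library.

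**Figure D3:**
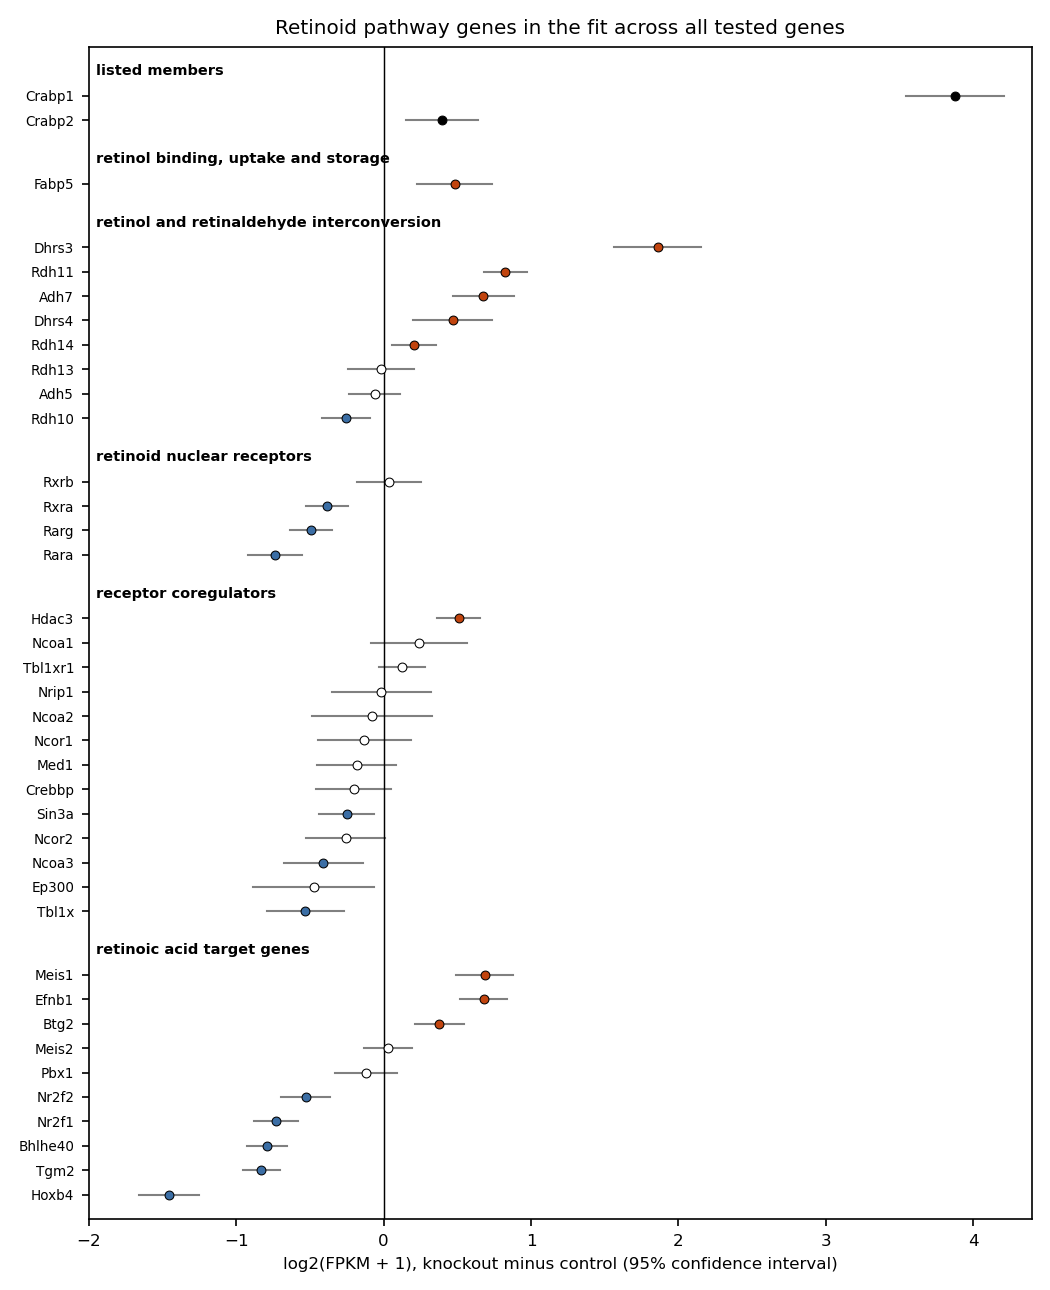
Log2(FPKM + 1) difference, knockout minus control (horizontal axis), with its 95% confidence interval for the 2 tested members (black) and 36 other tested retinoid genes grouped by role, each drawn once under its first list. Filled points in the other groups passed the threshold (orange rose, blue fell) and white points did not, with Dhrs3 at 1.86 and the receptors Rara, Rarg and Rxra at -0.74, -0.49 and -0.38.

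Of 14 listed coregulators of the receptors 13 were tested, of which 1 rose, 3 fell and 9 did not pass. The share called was 30.8%, beside 50.2% of all tested genes, and the difference between these shares was not tested. Hdac3, a deacetylase of the NCOR corepressor complex, rose by 0.51 ± 0.06 (SE), with 48.0 ± 2.51 FPKM in knockout and 33.4 ± 1.39 FPKM in control libraries (SD, n = 3 each, limma adjusted p = 0.000321). Tbl1x, a further subunit of that complex, fell by 0.53 ± 0.11 (SE), with 32.0 ± 5.30 FPKM in knockout and 46.3 ± 1.10 FPKM in control libraries (SD, n = 3 each, limma adjusted p = 0.0055). Hdac3 lies on chromosome 18, whose 291 tested genes had a median difference of 0.37, and Tbl1x on the X chromosome, with a median of -0.36 over 371 genes. Both calls were lost when the genes of each chromosome were centred (adjusted p 0.143 and 0.177, ranges over all settings 5.95e-06 to 0.143 for Hdac3 and 1.65e-05 to 0.177 for Tbl1x). The coactivator gene Ncoa3 fell by 0.41 and the corepressor scaffold gene Sin3a fell by 0.25. The call of Ncoa3 was lost without any 1 control library (adjusted p 0.0546 to 0.0725), on centring by chromosome and with scaling to a common sum (0.167 and 0.0706, range over all settings 0.000691 to 0.167). That of Sin3a did not survive leaving out knockout replicate 3 or any 1 control library (0.051 to 0.118), nor scaling to a common sum or quantile normalization (0.133 and 0.0556, range over all settings 0.00659 to 0.133).

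Known target genes of retinoic acid did not move in 1 direction. Of 35 listed genes 32 were in the table and 14 were tested, and 4 of them rose, 7 fell and 3 missed the threshold. Their median difference was -0.32. The share called was 78.6%, beside 50.2% of all tested genes, a difference that was not tested. Besides Dhrs3, the homeobox gene Meis1 and the ephrin gene Efnb1 rose by 0.69 ± 0.08 and 0.68 ± 0.07 (SE). Meis1 was read at 3.07, 3.57 and 2.88 FPKM in knockout libraries and at 1.56, 1.69 and 1.52 FPKM in control libraries (limma adjusted p = 0.000327), a value known before the list was made. Efnb1 was read at 5.69, 5.81 and 5.49 FPKM in knockout libraries and at 3.29, 3.2 and 3.0 FPKM in control libraries (limma adjusted p = 0.000104).

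Hoxb4, a homeobox gene with a retinoic acid response element, fell by 1.46 ± 0.09 (SE), with 0.78, 1.07 and 0.97 FPKM in knockout libraries and 4.63, 4.37 and 3.96 FPKM in control libraries (limma adjusted p = 5.59e-06). Tgm2, a transglutaminase long used as a marker of the retinoic acid response, fell by 0.83 ± 0.05 (SE), with 23.46, 21.89 and 23.28 FPKM in knockout libraries and 41.54, 41.44 and 41.31 FPKM in control libraries. Bhlhe40, first isolated as a retinoic acid-induced gene, was the most abundant gene of the list and fell by 0.79 ± 0.06 (SE), with 31.9 ± 1.64 FPKM in knockout and 55.9 ± 1.16 FPKM in control libraries (SD, n = 3 each). Rara, described above, also belongs to this list, and the orphan nuclear receptors Nr2f1 and Nr2f2 fell by 0.73 and 0.53. Over all settings the difference of Nr2f2 lay between -0.58 and -0.29. In all, 6 of the 35 genes, among them Dhrs3 and Rara, are also on another of the lists, so the counts of the lists are not separate results.

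Over all 79 other retinoid genes, 71 were in the table, 37 were tested and 23 passed, 10 higher and 13 lower in the knockout. The share called was 62.2%, beside the 50.2% of all tested genes, and the median difference was -0.12, beside -0.02. Without knockout replicate 2, 26 of the 37 passed, 11 higher and 15 lower. In that fit 7391 of all 11112 tested genes passed, more than in the main fit, and the difference between these shares was not tested.

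**Figure D4:**
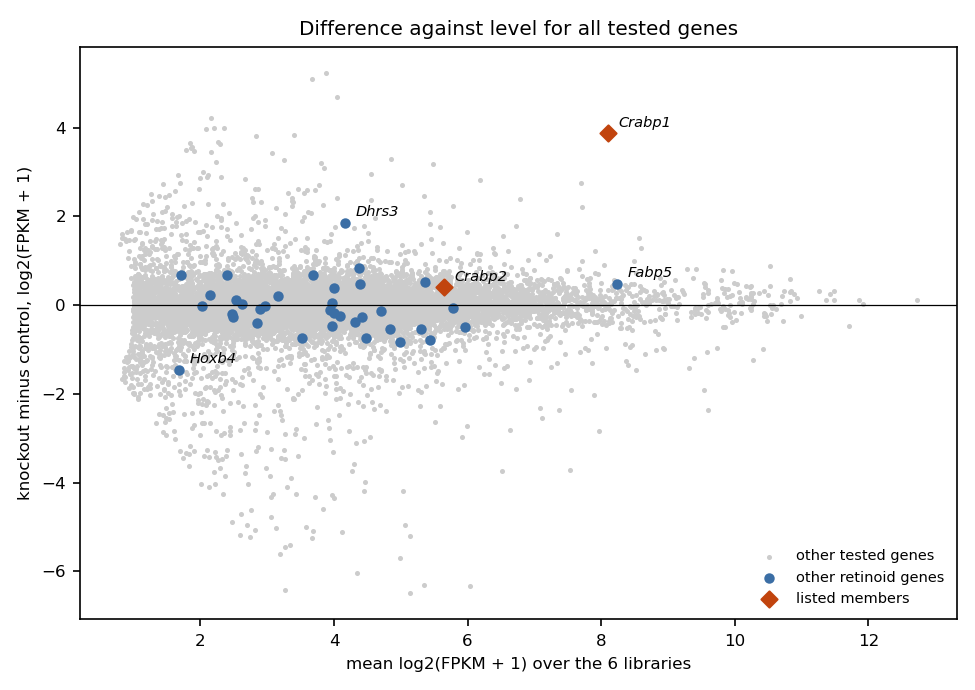
Difference between knockout and control (vertical axis, log2(FPKM + 1)) against mean level (horizontal axis, log2(FPKM + 1) over the 6 libraries) for the 11112 tested genes, with the 2 tested members as orange diamonds and 36 other retinoid genes in blue. Crabp1, at a difference of 3.88, lies above all other tested genes of similar or higher level, whereas Crabp2, at 0.40, lies within the main cloud.

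The genomic surroundings of the members were read from the nearest tested gene on either side, by RefSeq positions. Of these 18 neighbours 5 were higher, 5 were lower and 8 did not pass, beside 50.2% of all tested genes called. Wdr61, 30.2 kb before Crabp1, was at 47.2 ± 3.59 FPKM in knockout and 47.0 ± 1.62 FPKM in control libraries (SD, n = 3 each), and Ireb2, 89.5 kb after it, at 16.4 ± 2.58 FPKM in knockout and 20.03 ± 1.202 FPKM in control libraries (SD, n = 3 each). Neither passed (limma adjusted p = 0.968 and 0.0621), and their log2 differences were 0.004 and -0.28, beside 3.88 for Crabp1. Nes, an intermediate filament gene 17.7 kb after Crabp2, fell by 0.95, and Isg20l2, on its other side, did not pass (limma adjusted p = 0.0873). The widest difference beside a member was that of Islr, a secreted mesenchymal protein gene 2.2 kb after Stra6, which fell by 2.88, with 0.90 ± 0.17 FPKM in knockout and 12.9 ± 0.711 FPKM in control libraries (SD, n = 3 each). Thrb, the thyroid hormone receptor gene after Rarb, rose by 1.25, with 2.50 ± 0.186 FPKM in knockout and 0.467 ± 0.0802 FPKM in control libraries (SD, n = 3 each), and Top2b, on the other side of Rarb, rose by 0.41. By RefSeq positions Top2b ends 0.1 kb before Rarb, whereas in the annotation used above (GENCODE) their spans overlap. The 368 tested genes of chromosome 14, where Rarb lies, had a median difference of 0.41, whereas the medians were 0.05 on chromosome 9 and -0.07 on chromosome 3, where Crabp1 and Crabp2 lie. Dysf before Cyp26b1, Sema7a before Stra6 and Polr2m after Aldh1a2 rose by 0.89, 0.42 and 0.27. Cep55 before Rbp4, Zfand5 after Aldh1a1 and Asb7 after Aldh1a3 fell by 0.49, 0.22 and 0.31. The remaining neighbours, Fra10ac1, Anxa1, Adam10, Lrrk1 and Exoc6b, did not pass.

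Genes with a profile like that of Crabp1 were ranked by the root mean square distance between log2(FPKM + 1) values over the 6 libraries, each gene centred on its mean. The nearest 5 were Ckb at 0.08, Cthrc1 at 0.09, Gap43 at 0.12, Mab21l2 at 0.13 and Fam174b at 0.16. They encode a creatine kinase, a secreted collagen-associated protein, a growth cone protein, a developmental regulator and a membrane protein, on 5 chromosomes other than that of Crabp1. Their levels were far lower, for example 34.88, 46.6 and 35.68 FPKM for Ckb in knockout libraries and 1.62, 1.65 and 2.14 FPKM in control libraries, with no overlap. Gap43, Cthrc1, Mab21l2 and Fam174b had means of 26.04, 15.9, 17.35 and 11.8 FPKM in knockout libraries. Their control means were 0.92, 0.08, 0.15 and 0.007 FPKM. The added 1 shrinks rises from such low levels, so a near profile here is not a like ratio. For Crabp2, which had the lower difference of the 2 tested members, the nearest were Pfn1, Smim19, Tmed1, Cavin3 and Oaz1, at 0.02 to 0.03. All 5 were highest in knockout replicate 2, as Crabp2 was.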

How the data were processed

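Total RNA was extracted with TRIZOL and, per the labels, libraries were made for DNBSEQ. Reads with adapter, poly-N or many low-quality bases were discarded by the authors, who then estimated expression per gene with RSEM. For mapping, HISAT2 2.0.4 and Bowtie2 2.2.5 are listed in the submitters' processing notes, with mm10 as the genome. The authors deposited FPKM rounded to 2 decimals, with 18051 genes in the table and 598 of them at 0 throughout. For annotation, filters and use of strand, details are not given in the sources used here. A table of FPKM holds no read counts: of 3821 ratios of low values, 9.6% lay within 0.05 of a whole number, near the 10% of an even spread, so depth is unknown and no counting interval is given. A value of 0 may be a failed estimate and is described as listed at 0. The authors' group means were not used.

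FPKM was converted to log2(FPKM + 1), which understates changes of low genes. The 11112 genes with a mean of at least 1 FPKM were fitted with limma 3.58.1 in R 4.3.3 (knockout against control, without covariates, with a trend of variance on level), and p-values were adjusted over all tested genes by Benjamini-Hochberg with a threshold of 0.05. The procedure was tested on simulated data. Members and lists were chosen with earlier results of these data known. Named were all members, S100a8, up to 3 rises and 3 falls and the most abundant gene of each list, the nearest tested neighbours, the 5 nearest profiles and marker genes. Some list genes are counted in the totals but are not reported here. Further list genes were named after their values were seen. Positions and transcript lengths are from GENCODE M21 (GRCm38) and promoters from RefSeq GRCm38.p6. Alternatives were other pseudocounts (0.1 and 0.5), filters (none, or a mean FPKM of at least 5) and scalings, no trend, each library left out, the replicate number as a block and centring by chromosome. Adjustment for transcript length was added after seeing the data.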

Additional observations from a re-analysis of the deposited data

How the results depend on the processing

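Over 17 alternatives the difference of Crabp1 lay between 3.70 (without knockout replicate 2) and 3.999 (without knockout replicate 1) on the log2 scale, and that of Crabp2 between 0.27 (without knockout replicate 2) and 0.48 (without knockout replicate 1). After adjustment for transcript length, chosen after seeing the data, Crabp2 was at 0.38. The fall of S100a8 passed under each alternative that tested it. The number of genes past the threshold was 4204 to 7391, against 5580. The lowest count came from a limit of 5 on mean FPKM, which tests fewer genes, and the highest from leaving out knockout replicate 2. Of the other retinoid genes, 19 to 32 passed, against 23, and the share of all genes called also changed with the setting. With no filter on low values 20 fell, against 13, because 71 rather than 37 were then tested. In that setting 32 of the 71 passed, beside 37.4% of all 17453 genes then tested, and the difference between these shares was not tested. The genes gained included Dhrs9, Rdh12, Rdh16, Hoxa4, Hoxb2, Hoxb5 and Ret, all lower in the knockout. Of the 23 calls, 18 were kept on centring by chromosome and 19 with scaling to a common sum. For 19 named retinoid genes the alternatives gave 319 values. Of these, 302 left the call unchanged, 16 lost it, 1 newly passed and 0 passed in the other direction. Replicate numbers did not pair the libraries: deviations of libraries with the same number correlated at 0.327, 0.104 and -0.214 across genes. With the replicate block 5527 genes passed, 23 of the other retinoid genes among them (Rdh14 lost, Ep300 gained), and the differences of Crabp1 and Crabp2 were unchanged. The differences of the 7 members under 1 FPKM depend on the pseudocount: that of Cyp26b1 was 0.48, against 1.07 with a pseudocount of 0.1, and that of Rbp4 was -0.42, against -2.10. Depth is unknown, so no limit from counting can be set.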
